A study of Danio rerio with 16 samples.

Results

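The caudal fin of the adult zebrafish held 347 stretches of 500 bp whose CpG methylation was lower in the 4-day regenerate than in uninjured fin in every kind of sample taken at both times. They were found by dividing each chromosome into tiles of 500 bp and keeping the 1343138 tiles, of 2631724 with a CpG, that had at least 30 CpG calls (reads summed over the CpGs of the tile) in each of 8 sorted cell libraries and at least 10 in each of 8 whole fin libraries. A member had a level at 4 days post amputation (dpa) that was at least 20 percentage points (points) below the level at 0 dpa in sp7+ cells and in sp7- cells, and at least 10 points below in whole fin. The level is the share of calls that read as methylated, in percent, with both libraries of a group pooled for the rule. The members were thus chosen by the levels of these 12 libraries, and differences between 4 and 0 dpa in them are descriptions and are not tested. The whole fin libraries of 1 and 2 dpa took part only through the minimum of calls.

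The fish carried the strain Tg(sp7:EGFP), in which regulatory sequence of sp7, a gene for a zinc finger transcription factor of the osteoblast lineage, drives green fluorescent protein. Whole fin was taken uninjured (0 dpa) and, from the regrowing part beyond the cut, at 1, 2 and 4 dpa. Flow sorting gave sp7+ cells (with EGFP, osteoblast lineage) and sp7- cells (without EGFP, the remaining fin cells), both from uninjured fin and from the 4 dpa blastema. The study states that not every regenerating osteoblast is marked by sp7, so sp7- cells may hold some of that lineage. Each of the 8 groups had 2 libraries made from pools of fish, so each SD below has n = 2, and comparisons of time set mature fin against regenerate. In sorted cells time also goes with the digestion. The study treated uninjured fins with TrypLE and then Liberase DL, and blastema with TrypLE only. Time and digestion cannot be told apart in these libraries. Whole genome bisulfite sequencing reached a mean coverage of 4.92 to 6.39 reads per CpG (whole fin) or 8.28 to 19.7 (sorted cells). Over a whole library 76.1% to 79.2% of calls were methylated for whole fin, and 76.1% to 80.3% for sorted cells. The labelled cell types were not checked against marker genes here, since only methylation was analysed.

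In vertebrates most CpGs are methylated, and the maintenance enzyme Dnmt1 copies the mark to the new strand when a cell divides. A mark can be lost when it is not copied or when Tet enzymes oxidise it, and enhancers in use commonly carry less of it than the sequence around them. Fin regrowth proceeds through a wound epidermis and a blastema, a mass of dividing cells to which dedifferentiated osteoblasts and fibroblasts of the ray contribute within their own lineages. Bulk libraries average over cells. A lower level in them can come from loss of methylation within cells or from a changed mixture of cells. These cannot be told apart here, also in sp7- and sp7+ cells.

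Few tiles met the rule. The limit of 20 points alone was met by 3516 tiles in sp7+ cells and by 5453 in sp7- cells, and by 515 in both. The mirrored rule, for tiles at least as much higher at 4 dpa, gave 164 tiles. All tiles together sat slightly lower at 4 dpa, with median differences of -1.76 points in sp7+ cells, -1.43 in sp7- cells and -0.91 in whole fin. With these shifts removed, 197 tiles were lower and 329 higher, so which direction had more tiles depends on this centring. The number also depended on 1 library: without the first sp7- library of 4 dpa the rule gave 535 tiles.

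The sorted cells can be set against whole fin without the choice of members, because the 515 tiles that met both sorted limits were picked with no whole fin level. Of these, 464 were lower in whole fin at 4 than at 0 dpa and 347 were lower by 10 points or more, which is 67.4% (95% Wilson interval 63.2% to 71.3%, counting error only). Without single libraries this share was 50.5% to 68.7%, reaching below the interval, which leaves out the spread between libraries. Among all tiles 6.84% were lower by 10 points or more. The median whole fin level of the 515 tiles was 67.3% and 63.9% in the 0 dpa libraries and 66.7% and 67.3% in those of 1 dpa. It was 57.9% and 59.6% in those of 2 dpa, then 48.0% and 51.1% in the last pair. Both 1 dpa libraries lay within the range of the 0 dpa libraries, both 2 dpa libraries lay below all 4 earlier ones, and both 4 dpa libraries lay below those of 2 dpa. A comparison of 2 libraries with 2 cannot give an exact permutation p below 0.333 (two-sided), so no p is given for these medians.

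In the 347 members the level at the start was nearest to that of other tiles in osteoblasts and lower in the other sets. The median level in uninjured fin was 81.7% and 81.4% in the sp7+ libraries, 72.7% and 72.5% in the sp7- libraries, and 70.5% and 67.2% in whole fin. The median over all tiles was 83.4% to 86.0% in these 6 libraries. At 4 dpa the members' medians were 57.7% and 56.7% in sp7+ cells, 43.1% and 38.1% in sp7- cells, and 42.9% and 46.2% in whole fin. As a mean over members, sp7+ cells had 79.5% ± 0.197 before and 55.2% ± 1.52 at 4 dpa, sp7- cells 71.1% ± 0.309 before and 40.5% ± 4.67 at 4 dpa, and whole fin 65.9% ± 2.32 and 45.3% ± 1.87 (SD, n = 2). The sp7- libraries of 4 dpa had means of 43.8% and 37.2% and were the pair that differed most, and that group also had the widest SD over all tiles (0.899 points).

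**Figure D1:**
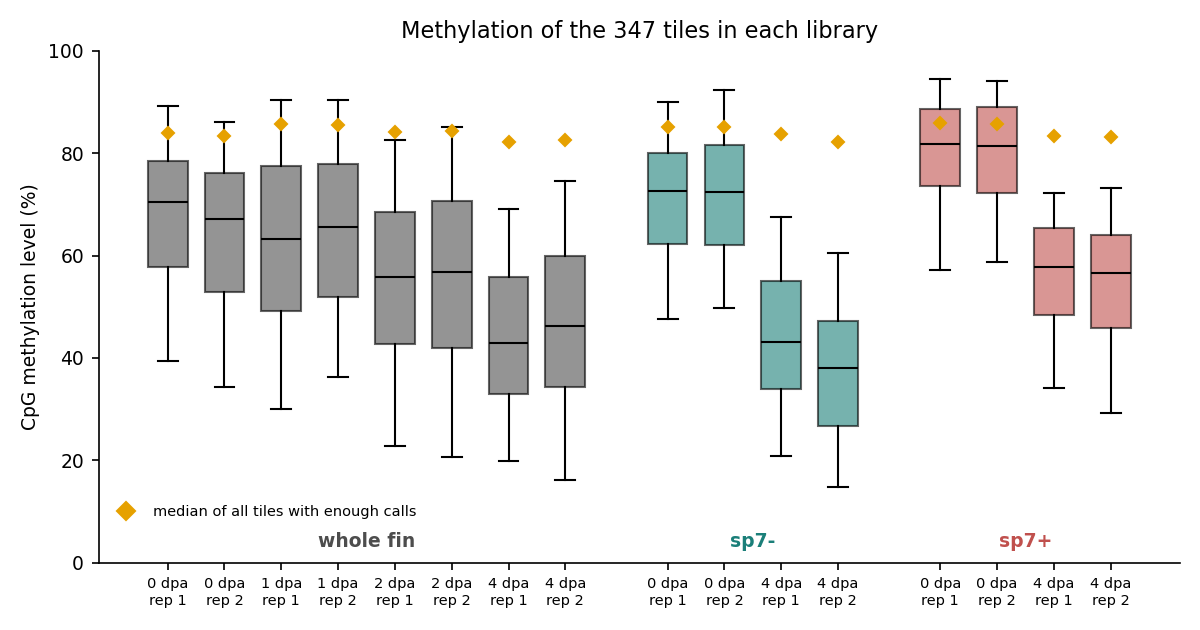
CpG methylation level (percent) of the 347 tiles in each of the 16 libraries, with whole fin in grey, sp7- cells in green and sp7+ cells in red (boxes, quartiles and median; whiskers, 5th to 95th percentile), and the median of all 1343138 tiles as diamonds. The boxes step down from 0 to 4 dpa in each set while the diamonds stay between 82.3% and 86.0%.

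The size of the difference was bounded above by the rule and is given for description. The median difference at 4 minus 0 dpa was -22.95 points in sp7+ cells (range -43.3 to -20.01), -27.6 in sp7- cells (-67.3 to -20.06) and -19.4 in whole fin (-52.7 to -10.07). Separation of the replicates was not asked by the rule, but pooled falls of this size in the same libraries make it likely. The counts of separated members are thus descriptions as well. Both 4 dpa libraries lay below both 0 dpa libraries in 345 members in sp7+ cells (35.3% of all tiles do so), in 344 in sp7- cells (29.6% of all tiles) and in 302 in whole fin (22.3%). In 298 members (85.9%) this held in all 3 sets at once, against 3.88% of all tiles. In a test across all tiles (limma's moderated test on transformed levels weighted by calls, p adjusted over all tiles after Benjamini-Hochberg, called when under 0.05 with over 25 points of difference), 83 members were called lower in sp7+ cells, where 0.0393% of all tiles were. The test called 165 members lower in sp7- cells (0.0703% of all tiles) and 16 in whole fin (0.00451%). The rule used these contrasts, and nothing is read from these counts. They also rest on the weighting by calls: with equal weights for all libraries the test called 0 members in each of the 3 sets. Without the first sp7+ library of 0 dpa the 83 became 31, without the first sp7- library of 0 dpa the 165 became 81, and without the first whole fin library of 4 dpa the 16 became 2.

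The whole fin series dates the change. The mean over members stood at 65.9% ± 2.32 in uninjured fin and at 63.3% ± 1.14 the next day, then at 55.2% ± 0.435 on day 2 and 45.3% ± 1.87 on day 4. Over all tiles the means were 77.3%, 79.3%, 78.2% and 76.3%. The members had thus covered 13.0% of the way from their 0 dpa to their 4 dpa mean at 1 dpa and 52.3% at 2 dpa. These shares are not corrected for all tiles, whose mean rose from 77.3% to 79.3% by 1 dpa. Measured against all tiles, the share covered by 1 dpa would be larger. The step from 1 to 2 dpa averaged -8.11 points and the step from 2 to 4 dpa -9.83 points. The first and last steps share the libraries that the rule used, which draws them downward, while the step from 1 to 2 dpa does not.

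Between 1 and 2 dpa the median difference of the members was -8.17 points, and 292 of 347 (84.1%) were lower at 2 dpa. Over all tiles the median was -0.93 points and 58.5% were lower. Tiles that began between 52.5% and 87.9%, the 5th and 95th percentile of the members' starting level, had a median of -1.46 points. Both 2 dpa libraries lay below both 1 dpa libraries in 160 members (46.1%), against 22% of all tiles and 23.2% in this range. The Wilson interval of the members' share, for counting error only, was 40.9% to 51.4%. Both 2 dpa libraries lay above both 1 dpa libraries in 8 members, against 12.3% of all tiles. By starting level the medians were -5.49 points in members that began at 50% to 60%, -9.30 at 60% to 70%, -8.40 at 70% to 80%, -7.03 at 80% to 90% and -10.3 in the 10 that began above 90%. No single tile could be called: limma's test found 0 of 1553447 tiles at 2 against 1 dpa (0% called, smallest adjusted p 0.149 over all tiles and 0.310 over members), also with equal weights or on log2 odds. At an unadjusted p under 0.05, 72 members were lower and 0 higher, where 4.1% of all tiles were lower. The 72 became 43 without the second whole fin library of 1 dpa and 27 on log2 odds.

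**Figure D2:**
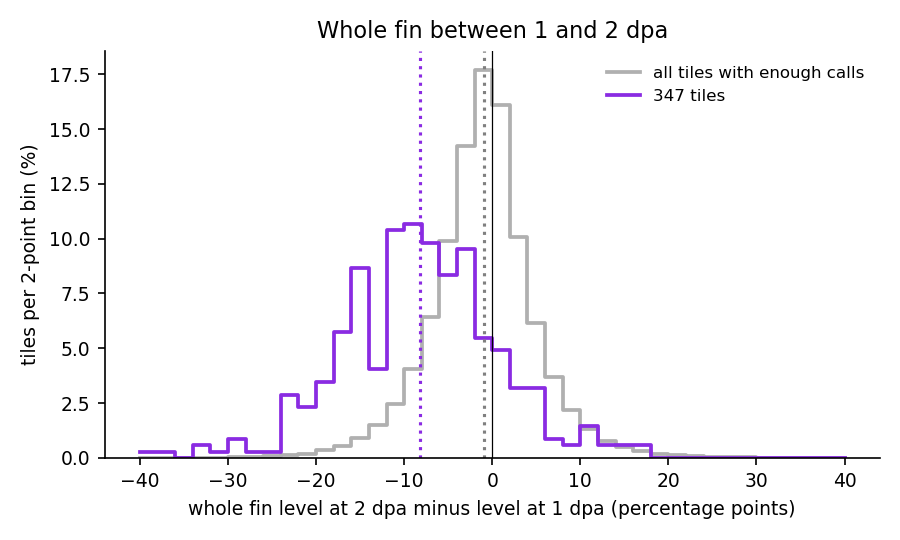
Whole fin level at 2 dpa minus the level at 1 dpa (points) for the 347 members and for all tiles with enough calls, as the percent of tiles per bin of 2 points, with dotted lines at the medians. The members' distribution is moved to lower values, with a median of -8.17 against -0.93 points.

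From 0 to 1 dpa the members and the rest of the genome moved apart by less. The median difference was -1.79 points in members and +1.42 points over all tiles, and 55.9% of members were lower at 1 dpa against 37.3% of all tiles. Tiles of like starting level had a median of +3.02 points, and 30.2% of them were lower. Both 1 dpa libraries lay below both 0 dpa libraries in 89 members (25.6%), where 11.2% of all tiles did, and above both in 53 members (15.3%), where 26.3% of all tiles did. In tiles of like starting level these shares were 8.12% below and 31.8% above. The 0 dpa libraries belong to the rule, and the median turned to +0.32 points when the rule was applied without the first sp7- library of 4 dpa. That value was still below the +1.42 points of all tiles under the rule as given. Whether the members as a whole had changed by 1 dpa was not resolved. limma's test called 1 member lower at 1 dpa (0.00161% of all tiles were called lower), chr10:28347000-28347499, named after its values were seen. It read 73.3% and 76.9% in the 0 dpa libraries and 46.2% and 51.8% in those of 1 dpa (adjusted p 0.0245). This call was lost with equal weights, on log2 odds, and without either 1 dpa library or the second of 0 dpa. At 2 dpa both libraries lay below both of 0 dpa in 171 members (49.3%), where 14.9% of all tiles did.

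Members differed in their course. Relative to the midpoint between a tile's own pooled levels at 0 and 4 dpa, 57 members were below it at both 1 and 2 dpa, 120 only at 2 dpa, 159 at neither and 11 only at 1 dpa. The 57 early members had median whole fin levels of 65.2%, 47.5%, 41.1% and 40.7% in order of time, an early fall that the class asks for. The 159 late members had 68.2%, 71.6%, 66.0% and 47.7%. These classes were read from the same levels and carry no test. They were alike in CpG number (medians 8 and 7) and in starting level (72.2% and 75.1%), and whole fin tiles had as few as 10 calls in a library, at which a single level is uncertain by many points.

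The 8 members with the largest mean difference, among those whose libraries separated in all 3 sets, show how these courses look. The largest was chr20:24153000-24153499, with 7 CpGs and 40 to 178 calls per library (positions on GRCz10 as deposited, whether counted from 0 or 1 is not settled; no gene annotation of that build was used here). Its level in sp7- cells was 77.2% and 75.8% in the 0 dpa libraries and 6.78% and 10.8% in those of 4 dpa, the widest difference of any member in any set (-67.3 points). In sp7+ cells it went from 85.4% and 84.2% to 46.1% and 40.5%. Whole fin libraries read 70.7% and 54.8% before injury, 40% and 45% on day 1, 32.1% and 20.6% on day 2, and 23.3% and 16.1% on day 4. This tile was close to unmethylated in sp7- cells at 4 dpa and intermediate in osteoblasts, and each whole fin time point lay below the one before it, the last with overlap.

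Whole fin was lower at 1 dpa in some of the others. At chr20:7549500-7549999 (6 CpGs, 19 to 74 calls) whole fin read 81.2% and 85.7% before injury, 34.8% and 45.8% on day 1, 22.7% and 47.4% on day 2, and 28.9% and 32.1% on day 4. Both 1 dpa libraries already lay far below those of 0 dpa, and the later time points overlapped with 1 dpa or lay close to it. At chr20:36569500-36569999 (8 CpGs) whole fin read 67.5% and 53.4%, then 25.9% and 51.8%, 31.8% and 38.6%, and 36.5% and 34.9%. Here the 2 libraries of 1 dpa were 25.9 points apart, so the time of the change is not fixed, while sp7- cells went from 75.4% and 62.5% to 18.2% and 5.63%.

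Others had the larger part of their whole fin difference after 2 dpa. At chr15:20776500-20776999 (5 CpGs, 26 to 135 calls) whole fin read 65.4% and 69.5% before injury, 66.7% and 57.1% on day 1, 58.8% and 59.6% on day 2, and 32.4% and 29.9% on day 4. At chr7:69527500-69527999 (4 CpGs, 18 to 70 calls) it read 71.4% and 72.2%, 63.2% and 95.7%, 61.5% and 70.8%, and 33.3% and 38.7%. In both tiles the 4 dpa libraries lay below all 6 earlier ones, while those of 2 dpa overlapped with 1 dpa. At chr5:44664000-44664499 (5 CpGs) the 4 dpa libraries read 7.14% and 34.3%, below the 42.1% to 71.4% of the 6 earlier whole fin libraries but far from each other, with as few as 14 calls in a library.

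**Figure D3:**
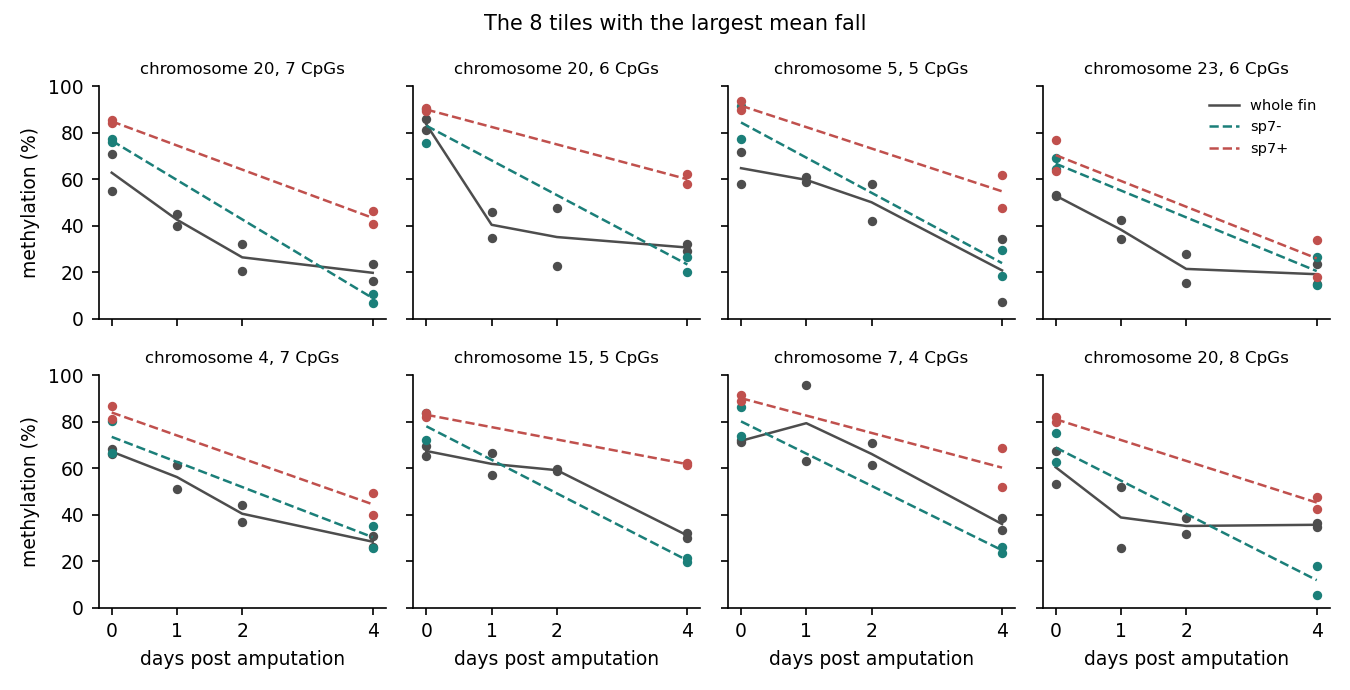
CpG methylation (percent) against days post amputation for the 8 members with the largest mean difference (points, libraries; lines, means of 2 libraries; solid, whole fin; dashed, sorted cells, measured at 0 and 4 dpa only). sp7- cells end below sp7+ cells in every panel, and whole fin is lower by 1 dpa in some tiles and mostly after 2 dpa in others.

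The remaining tiles of the 8 were chr23:31367000-31367499 and chr4:21127500-21127999, and each was next to a further member. The first tile on chromosome 23 had the lowest sp7+ level of the 8 at 4 dpa. There sp7+ cells went from 76.9% and 63.6% to 33.7% and 18.1%, and sp7- cells from 68.9% and 64.3% to 26.4% and 14.5%. Its neighbour, chr23:31367500-31367999, ended at 54.9% and 54.2% in sp7+ cells and at 39.3% and 32.6% in sp7- cells. On chromosome 4, whole fin in the tile from 21127500 read 66.1% and 68.2%, 61.5% and 50.9%, 36.8% and 44.2%, and 30.8% and 26.1%, with 52 to 244 calls per library. All 4 time points there were in descending order without overlap. Its neighbour, chr4:21127000-21127499, did not show this order. Whole fin there read 73.6% and 77.4%, 60.7% and 42.3%, 59.6% and 23.5%, and 48.9% and 50%, so the libraries of 1, 2 and 4 dpa overlapped.

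The members with 25 and 24 CpGs, the most of any, had mean differences over the 3 sets of -19.4 and -19.9 points. The median over all members was -23.8 points. In sp7+ cells alone the member with 24 CpGs had -24.1 points, a larger fall than the members' median of -22.95. The member with most CpGs, chr9:1793500-1793999, held 25 CpGs and at least 343 calls in each sorted library. In sp7+ cells it read 71.6% and 68.8% against 52.0% and 46.5% after 4 days, 67.1% and 54.0% against 37.5% and 41.4% in sp7- cells, and 57.7% and 53.0% against 39.6% and 40.4% in whole fin. The tile chr19:17749000-17749499 (24 CpGs) went from 84.1% and 82.2% to 61.5% and 55.7% in sp7+ cells, and whole fin read 57.0% and 68.3% at 1 dpa but 47.1% and 49.2% at 2 dpa. In both tiles every 4 dpa library lay below every 0 dpa library of its set. Next by CpG number was chr22:16118500-16118999 (21 CpGs). Its whole fin libraries read 71.2% and 78.0%, 57.2% and 69.8%, 58.1% and 60.7%, and 56.5% and 58.9% in order of time. Here both 1 dpa libraries already lay below those of 0 dpa.

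The limits themselves cut through a continuum. The members nearest to a limit had sp7+ differences of -20.01 points (chr7:61492500-61492999), -20.02 (chr5:34102000-34102499) and -20.03 (chr16:7848500-7848999). The tiles just outside missed the limit narrowly in 1 set: chr22:4970500-4970999 had -19.99 points in sp7- cells, and chr20:28185000-28185499 and chr3:60573000-60573499 had -19.99 points in sp7+ cells. The placing of the tiles matters likewise: shifted by 250 bp, 320 tiles met the rule, and 132 of the 347 members (38.0%) overlapped one of them.

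The cell types differed in level within the members. At 0 dpa sp7+ cells were higher than sp7- cells in 296 of 347 members (85.3%, against 55.8% of all tiles). The median difference was +8.23 points against +0.45 over all tiles. Both sp7- libraries lay below both sp7+ libraries in 215 members (62.0%), where 23% of all tiles did, and above both in 18 members, where 16.2% did. At 4 dpa the median difference was +14.05 points against +0.13 over all tiles, and 324 members were higher in sp7+ cells (93.4%, against 51.5% of all tiles). Both sp7- libraries lay below in 240 members (69.2%), where 20.4% of all tiles did, and above in 8, where 18.6% did. The level of sp7- cells had gone down further in 259 members (74.6%, against 47.2% of all tiles). The median of this difference was 4.41 points over all 347 and -0.29 points over all tiles.

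The rule used these libraries, though not this contrast, so the calls are a description. limma's test called 12 members at 0 dpa, all higher in sp7+ cells (0.051% of all tiles were called higher), and 50 at 4 dpa, all higher (0.089% of all tiles). Without the second sp7- library of 4 dpa the 50 became 29, and without the first sp7+ library of 4 dpa 26. These calls too rest on the fit: with equal weights the 12 became 1 and the 50 became 0, and on log2 odds they became 2 and 5. The interaction, which asks whether the difference over time was unlike in both cell types, called 0 members (smallest adjusted p among them 0.226) and 13 tiles in all, 0.000321% of tiles in the direction of a larger fall in sp7- cells. The 13 became 192 without the second sp7- library of 4 dpa, 4 and 6 without the first and the second sp7- library of 0 dpa, and 3 without the first sp7+ library of 0 dpa or either of 4 dpa, with 0 members each time. The larger difference in sp7- cells was therefore not resolved for any single member.

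At 4 dpa most members had intermediate levels. A level under 20% was reached by 18 members in sp7- cells (5.19%, against 3.88% of all tiles). It was reached by 15 in whole fin (4.32%, against 3.76%) and by 2 in sp7+ cells (0.576%, against 4.42%). Between 20% and 80% lay 329, 331 and 345 members, in the same order, against 36.7%, 38.7% and 35.4% of all tiles. The rule sets much of this: after a fall of at least 20 points no sorted level can lie above 80%. The limit of 10 points caps whole fin likewise. Most other tiles lay at 80% or more, so nothing is read from this comparison. The uninjured osteoblasts were the only set in which most members (200 of 347) began at 80% or more, against 86 in sp7- cells and 57 in whole fin. The members thus went from high or intermediate to mostly intermediate levels, with the upper bound at 4 dpa set by the rule.

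The starting level, as the mean of the 3 sets at 0 dpa, had a median of 73.7% in members (5th to 95th percentile 52.5% to 87.9%) and 84.8% over all tiles. Per 10000 tiles there were 9.76 members among tiles that began at 50% to 60%, 7.29 at 60% to 70%, 5.66 at 70% to 80%, 1.79 at 80% to 90% and 0.264 above 90%. There were 0 members among tiles that began under 20%. The 0 dpa level enters the rule, so these rates describe the members and are not tested.

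CpG density was low. Members held a median of 7 CpGs (5th to 95th percentile 3 to 14, highest 25), and all tiles a median of 10. The 164 tiles of the mirrored rule held a median of 8. A low CpG number was thus not particular to tiles lower at 4 dpa. Per 10000 tiles there were 8.22 members among tiles of 1 to 4 CpGs, 4.56 at 5 or 6, 3.68 at 7 or 8, 2.28 at 9 or 10, 2.01 at 11 to 15 and 0.427 at 16 or more. Fewer CpGs also mean fewer calls and a wider scatter of levels. The lowest number of calls in a sorted library had a median of 63 in members, 58 in tiles of the mirrored rule and 86 over all tiles. The rate of members was 4.44 per 10000 tiles at 30 to 49 calls and 0.817 at 200 or more. With at least 50 calls in each sorted and 20 in each whole fin library, 211 members were left, with a median of 9 CpGs. The part of depth in the low CpG number was not tested beyond this.

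**Figure D4:**
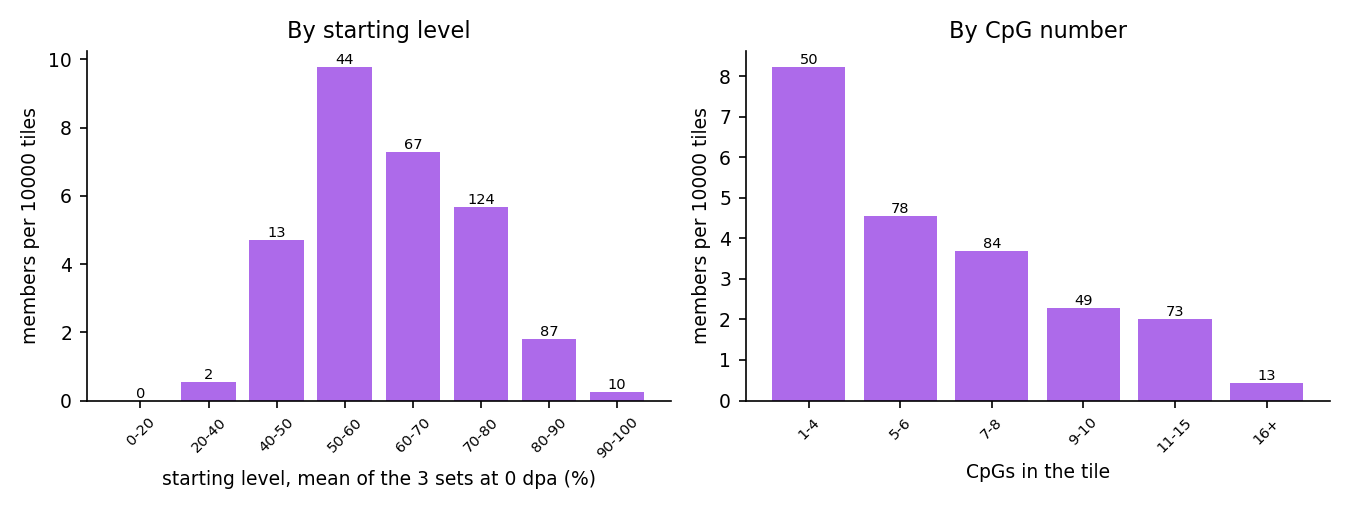
Members per 10000 tiles with enough calls, by the mean level of the 3 sets at 0 dpa (left, percent) and by the number of CpGs in the tile (right), with the number of members above each bar. The rate is highest, 9.76, at a starting level of 50% to 60%, and goes down from 8.22 at 1 to 4 CpGs to 0.427 at 16 or more.

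The differences were shared by the CpGs of a tile. Of 2826 CpGs in members, 1718 had at least 10 calls in each pooled group of the rule. Among these, 97.8% were lower at 4 dpa in sp7+ cells, 97.6% in sp7- cells and 89.2% in whole fin, and 86.6% were lower in all 3. In 258 of 267 members with at least 3 such CpGs, over 50% of them were lower in all 3 sets. The limits themselves were less robust: 120 members met all 3 limits whichever 1 of their CpGs was left out, and 323 met limits of 10 points in sorted cells and 5 in whole fin. The levels of single CpGs went into the rule, so these shares are descriptions.

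The difference was smaller beside the members. In tiles next to a member, leaving out other members, the median differences at 4 minus 0 dpa were -4.42 (side of lower coordinates) and -3.67 points in sp7+ cells, -5.66 and -5.09 in sp7- cells and -4.57 and -2.62 in whole fin. Among 182 and 171 such neighbours with enough calls, 9 and 10 were called lower in sp7- cells by limma's test (0.0703% of all tiles were) and 0 and 1 in sp7+ cells (0.0393%). From 1000 to 5000 bp away the medians in sp7- cells were -2.45 to -0.74 points, around the -1.43 of all tiles. Per distance, 4.68% to 13.0% of these tiles were at -10 points or lower in sp7- cells, against 5.04% of all tiles. limma's test called 0 to 3 of them lower at each distance (0.0703% of all tiles were). In pooled calls around the tile centres, sp7- cells at 4 dpa read 83.1% at 1000 bp before the centre, 57.2% at 300 bp, 39.1% at 100 bp before it, 57.0% at 300 bp after it and 86.8% at 1000 bp after it. The rule chose tiles of 500 bp by these levels, so the width of the low stretch is not independent of the tile length.

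**Figure D5:**
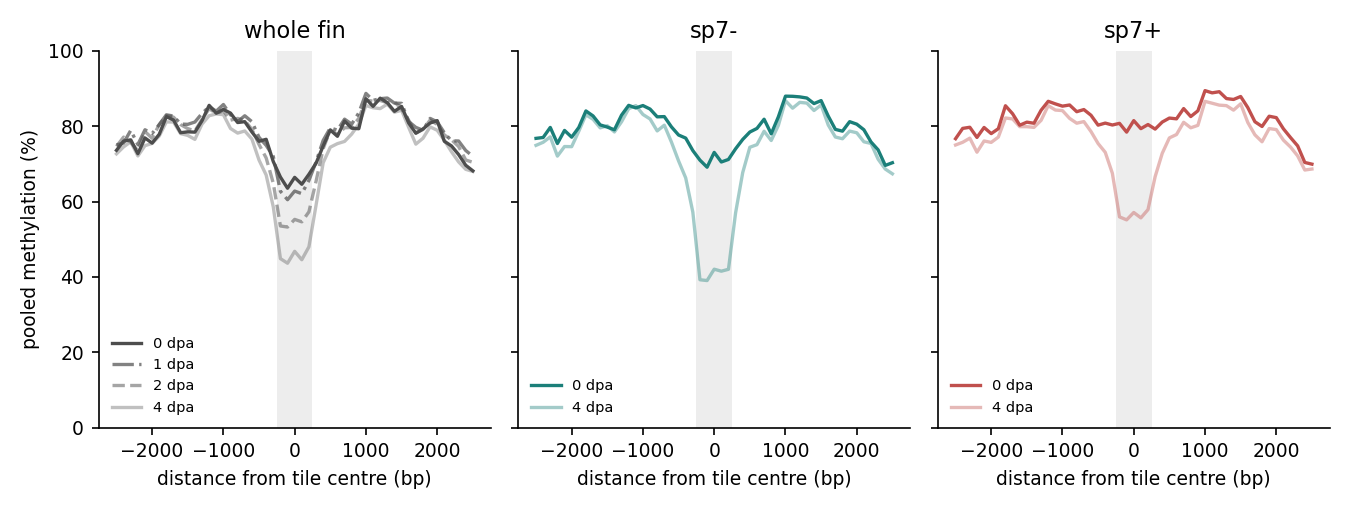
Pooled CpG methylation (percent, bins of 100 bp) against the distance from the tile centre (bp) over the 347 members, in whole fin, sp7- and sp7+ cells, with the tile shaded. Whole fin and sp7- cells dip within the tile already at 0 dpa. In sp7+ cells at 0 dpa the tile lies less far below its flanks (81.5% at the centre, 85.3% and 89.4% at 1000 bp before and after it). All sets dip at 4 dpa. Levels also go down toward 2500 bp after the centre, at 0 dpa to 68.1% in whole fin and 69.9% in sp7+ cells.

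A shallow dip was there before amputation in whole fin and sp7- cells. Set against the mean of the tiles 1000 to 2000 bp away, which 333 members had, the members lay at a median of -13.7 points in whole fin at 0 dpa, -11.5 in sp7- cells and -2.75 in sp7+ cells. Over all tiles these medians were +1.72, +1.78 and +1.76, and over tiles of like starting level -1.73, -1.55 and -1.28. Members sat low within that range, at a median of 68.1% in whole fin against 78.8%, and the 0 dpa levels belong to the rule, so the part of the choice of members in this dip was not tested. In whole fin the dip was -16.4 points at 1 dpa and -24.3 at 2 dpa, in libraries that the rule did not use for levels, and 270 and 287 of the 333 members lay below their surroundings (43.7% and 44.0% of all tiles did, and 53.5% and 54.1% of those of like starting level). At 4 dpa it was -33.1 points in whole fin, -39.4 in sp7- cells and -25.6 in sp7+ cells.

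Members lay on all 25 chromosomes, from 4 on chromosome 12 to 29 on chromosome 3, or 0.787 to 4.87 per 10000 tiles. They were scattered: 329 stood alone and 18 formed 9 adjacent pairs. The nearest other member was within 50 kb for 59 members and 962 kb away at the median. The outer 1 Mb of the chromosomes held 8 members (2.31%, against 4.27% of all tiles), and the part of chromosome 4 beyond its midpoint held 0 (1.28% of all tiles). Tiles of excess coverage, over 3 times the median number of calls per CpG, held 0 members (0.296% of all tiles).

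Unmethylated sequence lay near some members. A tile under 20% in all 3 sets at 0 dpa (low tile) lay within 1 kb of 6 members (1.73%) and of 2.32% of tiles with a like starting level. Within 5 kb there was such a tile for 65 members (18.7%), against 18.9% of all tiles and 13.9% of those with a like starting level. Relative coverage, the ratio of calls at 4 to 0 dpa against the median of all tiles, was 1.04 in sp7+ cells, 0.940 in sp7- cells and 0.976 in whole fin at the median member, so the number of calls changed between the times by about as much as in other tiles.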

How the data were processed

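Whole genome bisulfite sequencing of 16 libraries was analysed. The authors trimmed reads with Trim Galore 0.4.1 and mapped them with Bismark 0.16.1 and Bowtie2 to GRCz10 carrying the strain's variants. The deposited values are counts per CpG, reads and methylated reads, at 23997221 CpGs with strands joined and no normalization. Reads carried no molecular identifiers, and libraries held 117991918 to 153260623 calls (whole fin) or 198736279 to 471925247 (sorted cells). The Wilson intervals take tiles as independent draws, so they cover counting error only and not the spread between libraries. Base conversion that failed, or a variant left in, would shift a level.

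Calls were summed over tiles of 500 bp (position divided by 500, rounded down) with Python 3.11.15, numpy 2.4.6 and pandas 2.3.3. The test across tiles took tiles with 10 calls in every library of the set, 1870252 in sorted cells and 1553447 in whole fin. It fitted the arcsine root of the level, with 0.5 added calls, weighted by calls, 1 mean per group, and shrank variances with limma 3.58.1 (R 4.3.3). It was tested on simulated data. Nothing shows that replicates were separate beyond their pools of fish. The study sorted both cell types per replicate, so equal numbers at a time point may share a pool, and the correlation of their deviations was 0.124 at 0 dpa and 0.0727 at 4 dpa. Named tiles were the 8 with the largest mean difference and separate libraries in all 3 sets, those with most CpGs or calls, adjacent pairs, and the 3 nearest on each side of a limit. Members and lists were chosen with earlier results of these data known. Alternatives covered calls, limits, tile size and place, pooling, centring, single libraries and test settings. Genes, sequences and the study's other assays were not used here.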

Additional observations from a re-analysis of the deposited data

How the results depend on the processing

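The median whole fin difference at 2 minus 1 dpa stayed below 0 in all 28 alternatives, at -9.17 to -7.11 points without single libraries and -6.77 with a limit of 15 points in sorted cells. The difference at 2 minus 0 dpa also stayed below 0 (-12.1 to -7.66 without single libraries). That at 1 minus 0 dpa ranged from -4.87 to 0.323 without single libraries, above 0 without the first sp7- library of 4 dpa, and was 0.62 with the limit of 15 points. The cause was not tested. Without single libraries the rule gave 291 to 535 tiles, a median starting level of 72.6% to 75.6%, and 7 to 8 CpGs. Of the tiles under both sorted limits, 50.5% to 68.7% were lower by 10 points or more in whole fin. Members with separate libraries at 1 and 2 dpa were 43.3% to 67.1%, the higher shares where 1 library stood on a side. The sp7+ minus sp7- difference was 6.31 to 10.2 points at 0 dpa and 9.42 to 16.7 at 4 dpa.

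A limit of 25 points gave 77 tiles, -14.5 points at 2 minus 0 dpa, -6.35 at 1 minus 0 dpa, a starting level of 74.3%, 6 CpGs, 77.0% for whole fin and 5.81 points between cell types at 0 dpa. One of 15 points gave 1399 tiles, -6.37 points at 2 minus 0 dpa, 74.8%, 8 CpGs and 47.7%. With median shifts removed there were 197 tiles, with -12.3 points at 2 minus 0 dpa, 73.9%, 8 CpGs and 7.19 points. Tiles of 1000 bp gave 126, with 75% both for starting level and for whole fin, 11 CpGs and 7.13 points. Tiles shifted by 250 bp gave 74.4%, 8 CpGs and 7.32 points. The 120 tiles that met the limits without any 1 CpG, an alternative chosen after seeing the data, had -14.8 and -6.19 points at 2 and 1 minus 0 dpa, 74.4%, 8.5 CpGs and 7.41 points. The higher minimum of calls gave 211 tiles and 9 CpGs, and CpGs with 5 calls gave 73.8% and 8 CpGs. The starting level was 74.6% at 20 calls, 74.3% for means of libraries and 73.6% without chromosome 4.

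In the tile test, over all tiles and over members, calls at a difference of 10 points were 17397 and 244 in sp7+ cells (1457 and 83 at 25 points), 7374 over all tiles in sp7- cells (1780) and 229 in whole fin (107). Between cell types they were 26521 and 50 at 0 dpa (7893 and 12) and 26719 and 96 at 4 dpa (7454 and 50). On log2 odds they were 36 and 5 in sp7+ cells, 0 and 0 in sp7- cells and in whole fin, and 1752 and 2, then 700 and 5, between cell types. With equal weights all were 0 except 931 and 1 between cell types at 0 dpa. The replicate block gave 1959 and 93, 2308 and 181, 113 and 14, 8815 and 12, and 8259 and 54 in this order, 0 at 2 against 1 dpa, and 183 and 1 at 1 against 0 dpa. It changed 1 count by over 1.5 times, the interaction of cell type and time over all tiles, from 13 to 68 (0 members in both). Same-numbered deviations correlated at 0.0593 to 0.124 in sorted cells and -0.00558 to 0.00585 in whole fin.

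Without single libraries the calls were 396 to 1797 and 31 to 89 in sp7+ cells, 648 to 4753 and 81 to 188 in sp7- cells, 28 to 164 and 2 to 14 in whole fin, 4002 to 8581 and 8 to 12 between cell types at 0 dpa, 3469 to 10734 and 26 to 66 at 4 dpa, and 0 to 3 and 0 at 2 against 1 dpa. A lone library was taken to vary like the other groups. With 20 calls in every whole fin library 0 tiles were called at 2 against 1 dpa. The interaction and 1 against 0 dpa were put through these alternatives after seeing the data. The interaction called 29 tiles at 10 points, 0 on log2 odds and with equal weights, and 3 to 192 without single libraries, with 0 members throughout. At 1 against 0 dpa the calls were 170 over all tiles and 1 member, 603 and 1 at 10 points, 0 and 0 on log2 odds and with equal weights, and 11 to 284 and 0 to 1 without single libraries. Members lower at an unadjusted p at 2 against 1 dpa were 72, 27 on log2 odds and 43 to 76 without single libraries.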

Other observations

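The 164 tiles that met the mirrored rule, higher at 4 dpa in all 3 sets, were unlike the members in level and in cell type. In CpG number they were close to the members, with a median of 8 against 7. Their mean level at 0 dpa had a median of 29.3%, against 73.7% in members. At 0 dpa sp7+ cells were lower than sp7- cells in 159 of the 164, with a median difference of -18.4 points, where the members had +8.23. At 4 dpa the difference was -19.04 points. They lay 64.3 points under the tiles 1000 to 2000 bp away in uninjured sp7+ cells, given as a median difference of -64.3, where the members had -2.75. In whole fin between 1 and 2 dpa they differed by a median of +4.29 points. The levels at 0 and 4 dpa belong to the rule in both sets of tiles, so apart from the step between 1 and 2 dpa these values are descriptions.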
